A study of Schizosaccharomyces pombe with 15 samples.

Results

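The genes described are those of the cytosolic ribosome of fission yeast (Schizosaccharomyces pombe), read against maps of 4 DNA-associated proteins. Members were protein-coding genes whose symbols start with rpl, rps or rpp followed by a digit in the RefSeq annotation of assembly ASM294v3. Of 141 matching symbols, 3 (rpp1, rpp21 and rpp40) were left out because the annotation gives their products as subunits of RNase P or RNase MRP. The remaining 138 members, of 5113 protein-coding genes, comprised 83 genes of the large subunit and 55 of the small subunit. The large-subunit group included 7 genes of the acidic stalk (rpp0 and the P1 and P2 genes). Also counted by symbol were rpl701, annotated as an RNase MRP subunit resembling ribosomal protein L7, and rpl44, annotated by an L28e domain.

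The maps came from chromatin immunoprecipitation sequencing with the Anti-Flag M2 antibody of cells grown in YES medium at 32 °C, held at 18 °C for 2 hours and fixed in formaldehyde for 30 min. All strains are h90 with the alleles ade6-M210, leu1-32 and ura4-D18, 1 strain per protein. Tags sit at the genes' own loci, as atf1-3xFLAG-hph, pcr1-3xFLAG-hph, deb1-3xFLAG-hph and, in a strain also labelled SPM1047, orc1::5xFLAG-orc1-kan. The Atf1 and Pcr1 strains further carry CenH delta::9xtetO-ura4, so that the cenH element of their silent mating-type region is replaced, and the Deb1 and Orc1 labels name no such allele. Controls were input from the Deb1 and Orc1 strains and 1 precipitation from an untagged strain without the tetO allele. The 15 samples include 2 precipitations per protein, 2 inputs each for Deb1 and Orc1, and 2 Atf1 precipitations with s1 and s2 deleted, which have no list of their own and were not analysed here. Each protein has 1 peak list (Atf1 1995 peaks, Pcr1 1567, Deb1 351, Orc1 1526), so nothing below has a replicate, read depth is unknown and no test between conditions was possible.

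Ribosomal protein genes are among the most strongly transcribed genes of a growing yeast cell, and their output follows nutrient supply through TOR signalling. In S. pombe many of their promoters carry HomolD, a short element just upstream of the start that takes the place of a TATA box and is recognised by Rrn7, and some carry a second element, HomolE. Atf1 and Pcr1 are bZIP transcription factors that pair with each other, act in the stress response and recognise ATF/CRE sites with the core TGACGT. Deb1 binds DNA as well. Orc1 belongs to the origin recognition complex, the assembly that marks where replication begins.

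Promoter stretches of 6 genes are shown because the results below turn on them, each the 150 bases before the annotated start, 5′ to 3′ in the direction of transcription, from RefSeq ASM294v3. Capitals mark the HomolD word CAGTCACA, or TGTGACTG where it lies on the other strand. Their places are rpl4102 (chr1:2853932-2854081, minus strand), rps801 (chr1:4287433-4287582, minus strand), rps27 (chr2:517171-517320, plus strand), rpl3002 (chr1:5095880-5096029, minus strand), rpl35A02 (chr2:2405979-2406128, minus strand) and rpl2501 (chr2:413377-413526, plus strand). The genes rpl4102 and rps801 had summits of Atf1, Pcr1 and Deb1, rps27 had a summit of all 4 proteins, rpl3002 had the Orc1 peak of highest fold among the members, rpl35A02 had an Atf1 summit on its HomolD word, and rpl2501 had Atf1 summits but no HomolD word.
rpl4102: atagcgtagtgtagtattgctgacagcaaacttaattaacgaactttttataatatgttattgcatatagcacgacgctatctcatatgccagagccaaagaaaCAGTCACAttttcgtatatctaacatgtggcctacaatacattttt
rps801: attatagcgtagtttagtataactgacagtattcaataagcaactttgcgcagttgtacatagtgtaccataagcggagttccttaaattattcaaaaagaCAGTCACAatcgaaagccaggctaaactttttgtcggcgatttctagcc
rps27: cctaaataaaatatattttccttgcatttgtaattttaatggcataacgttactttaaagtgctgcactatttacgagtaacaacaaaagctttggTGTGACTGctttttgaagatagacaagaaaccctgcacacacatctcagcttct
rpl3002: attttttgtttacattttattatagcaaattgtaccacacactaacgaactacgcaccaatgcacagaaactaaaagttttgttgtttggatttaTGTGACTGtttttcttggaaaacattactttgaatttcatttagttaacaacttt
rpl35A02: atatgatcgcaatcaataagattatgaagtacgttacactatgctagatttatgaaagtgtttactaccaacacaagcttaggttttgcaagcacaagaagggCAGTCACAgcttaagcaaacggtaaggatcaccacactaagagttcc
rpl2501: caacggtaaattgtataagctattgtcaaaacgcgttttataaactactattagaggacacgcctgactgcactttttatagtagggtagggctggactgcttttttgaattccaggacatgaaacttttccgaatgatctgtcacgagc
The word starts 46 bases before the start at rpl4102, 49 at rps801, 54 at rps27, 55 at rpl3002 and 47 at rpl35A02.

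HomolD marked the members far more than it marked other genes. The word, searched on both strands over the 300 bases before the start, was in 88 of 138 member promoters (63.8%), against 134 of 5113 protein-coding promoters (2.62%), so that 88 of the 134 promoters with the word belonged to members. Large-subunit genes carried it in 54 of 83 cases (65.1%) and small-subunit genes in 34 of 55 (61.8%). The 91 matches lay at a median of 51 bases before the start, with the middle 50% between 57 and 47 bases and the extremes at 148 and 16 bases; 62 were in the orientation CAGTCACA and 29 in the other. HomolE, searched as ACCCTACCC on both strands, was in 41 member promoters (29.7%), against 1.31% of all promoters, and was in 24.1% of large-subunit and 38.2% of small-subunit promoters. The ATF/CRE core TGACGT was in 2 member promoters (1.45%), against 6.02% of all promoters, and its palindrome TGACGTCA was in none of the 138. The TATA word TATAAA was in 38.4% of member promoters, against 51.1% of all. A match describes the letters in the window and is not a measured binding site. Only exact matches were counted, so promoters with a near match, such as CAGTCACG at rpl13 and rpl302, count as without the word.

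A peak was assigned to a gene when its summit lay between 1000 bp upstream and 200 bp downstream of the annotated start. The lists and the reference differ by 12220 bp on the right of chromosome 2, and 2 members, rpl401 and rpp202, lie in the stretch where the offset begins and could not be placed. That leaves 136 members (81 large, 55 small) and 5095 protein-coding genes in all. Of the placed members, 25 lie in the shifted part.

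Atf1 and Pcr1 summits were frequent at ribosomal protein genes, Deb1 summits were at the level of other genes and Orc1 summits were scarcer. Atf1 had a summit in the window of 51 of 136 members (37.5%), against 26.3% of all protein-coding genes. Pcr1 had one at 35 members (25.7%), against 20.6% of all genes. Deb1 had one at 8 members (5.88%), against 6.22%, and Orc1 at 11 (8.09%), against 15.6%. Summits of both Atf1 and Pcr1 were found at 24 members (17.6%), against 17.5% of all genes, and 65 members (47.8%) had no summit of any list, against 61.1% of all genes. Atf1 without Pcr1 was at 27 members (19.9%), against 8.77% of all genes, and Pcr1 without Atf1 at 11 (8.09%), against 3.06%.

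The higher Atf1 and Pcr1 shares rested on peaks of low enrichment. Among peaks with a −log10 q of at least 10 (the caller's adjusted p on a log scale), Atf1 was at 8 members (5.88%), against 12.3% of all genes, and Pcr1 at 3 members (2.21%), against 10.0%, so the direction turned for both. With a fold of at least 3, Atf1 was at 2 members (1.47%), against 7.54% of all genes, and Pcr1 at 2 members (1.47%), against 7.95%. With the 1000 bp upstream of the start alone, Atf1 was at 29.4% of members, against 24.6% of all genes, while Pcr1 was at 16.9%, against 19.3%.

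**Figure D1:**
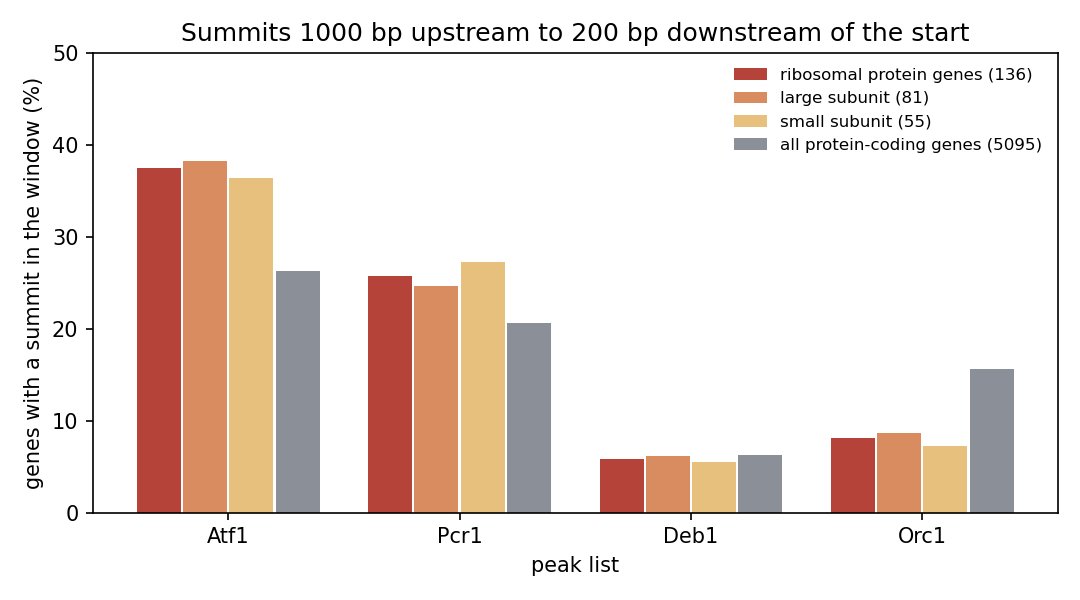
Bars give the percent of genes with a summit of each list between 1000 bp upstream and 200 bp downstream of the start, for the 136 placed ribosomal protein genes, the 81 large-subunit and 55 small-subunit genes among them, and all 5095 placed protein-coding genes. The Atf1 and Pcr1 bars of the members (37.5% and 25.7%) stand above those of all genes (26.3% and 20.6%), and the Orc1 bar (8.09%) below (15.6%); bars have no error because each protein has 1 list.

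In the lists as deposited the subunits had similar shares. Atf1 was at 31 of 81 large-subunit genes (38.3%) and 20 of 55 small-subunit genes (36.4%), and Pcr1 at 20 (24.7%) and 15 (27.3%). Deb1 was at 5 large-subunit and 3 small-subunit genes, and Orc1 at 7 and 4. With a −log10 q of at least 10, Atf1 was at 7 large-subunit genes (8.64%) and 1 small-subunit gene (1.82%), against 12.3% of all genes. That difference rests on 8 genes and was not seen in the other lists. Pcr1 was at 2.47% and 1.82% with this threshold, Orc1 at 4.94% and 5.45%, and the Deb1 counts were unchanged. Without the threshold, both Atf1 and Pcr1 were at 16 large-subunit genes (19.8%) and 8 small-subunit genes (14.5%). Among the 6 placed genes of the acidic stalk, which recruits translation factors to the ribosome, rpp201 had an Atf1 and a Pcr1 summit, rpp101 had a Deb1 summit, and none had an Orc1 summit.

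The fold enrichment, a ratio that the authors' caller gives to each peak, was low at members for Atf1 and Pcr1. The highest Atf1 fold per gene had a median of 2.08 at members (range 1.70 to 3.79), against 2.44 over all genes with a summit, and for Pcr1 2.20 (1.76 to 3.98), against 2.64. Of the 59 Atf1 peaks in member windows, 15 were above the list's median fold of 2.25 and 2 (3.39%) reached 3-fold, against 20.9% of the whole list. Of the 37 Pcr1 peaks, 7 were above the list's median of 2.41. Deb1 stood the other way, with a median of 5.26 at members (4.01 to 6.76), against 4.62 over all genes with a summit, and 7 of the 8 peaks above the list's median of 4.35. For Orc1 the medians were 2.34 at members (1.82 to 3.99) and 2.34 over all genes with a summit. Folds are compared within a list only, and 29 of the 59 Atf1 member peaks held a fold that another peak of the list shares, against 26.1% of the list.

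**Figure D2:**
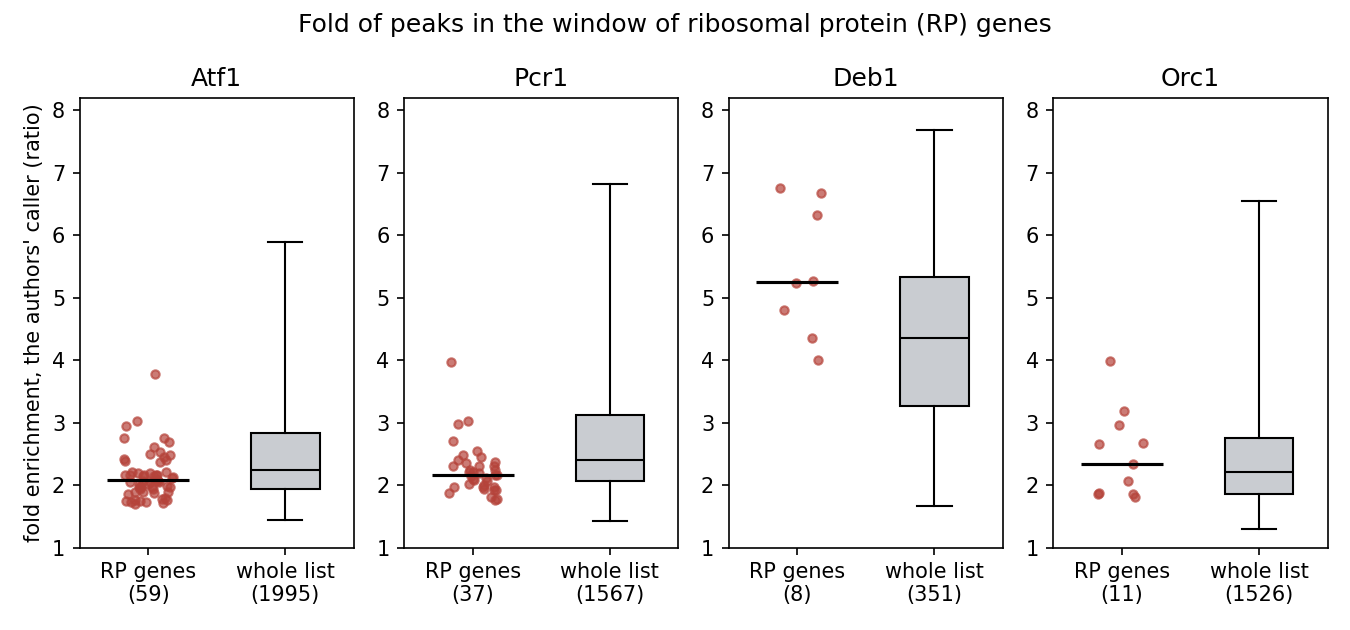
Points are the fold enrichment (a ratio from the authors' caller) of each peak in the window of a ribosomal protein (RP) gene, with a line at their median; boxes give the quartiles of the whole list, whiskers its lowest and highest value. Most Atf1 and Pcr1 points lie under the median of their list (2.25 and 2.41), and 7 of 8 Deb1 points lie above theirs (4.35).

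The member with the highest fold of both Atf1 and Pcr1 was rpl4102, which encodes eL41, a very short basic protein of the large subunit. Its Atf1 peak (chromosome 1, 2853708 to 2854519, summit 423 bp upstream) had a fold of 3.79 and ranked 198 of 1995. Its Pcr1 peak (summit 206 bp upstream) had a fold of 3.98 and ranked 213 of 1567, and its Deb1 peak (summit 596 bp upstream) a fold of 6.76 at rank 12 of 351. The 3 intervals overlap over the promoter shown above. Its paralogue rpl4101 had Atf1 at 2.54 (34 bp into the gene) and Pcr1 at 2.30 (1 bp upstream), a second Atf1 peak at 1.97 (888 bp upstream) and no Deb1 summit.

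Next by Atf1 fold was rpl42, for the large-subunit protein eL42, with 3 Atf1 peaks of 3.02, 2.39 and 1.74 and 2 Pcr1 peaks of 2.98 and 2.71. Its Atf1 summits of 3.02 and 2.39 lay 510 and 731 bp upstream, but 111 and 110 bp from the start of the neighbouring gene SPAC15E1.02C. Then came rpl1001 at 2.95 (191 bp upstream), for the large-subunit protein L10, which in budding yeast joins the ribosome late in assembly. The eL21 gene rpl2102 and the eL43 gene rpl4302 followed at 2.76 each, with summits 183 and 87 bp into the gene. The eS8 gene rps801 had Atf1 at 2.70 (404 bp upstream) and Pcr1 at 3.03 (482 bp upstream), the second highest Pcr1 fold among members, above that of rpl42. The rest of the 10 highest for Atf1 were rps13 (2.60), rpl4101 (2.54), rpl1801 (2.51) and rps102 (2.49). For Pcr1 they were rps27 and rps29 (2.54, 1 peak in the windows of both), rpl1001 (2.48), rps102 (2.45), rpl702 (2.40), rps2402 (2.36) and rps3 (2.35), whose product, S3, lines the entry path of mRNA on the small subunit. Summits of these genes fell on either side of the start.

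Where Atf1 and Pcr1 were both found, they were mostly at one place. At the 24 members with both, the intervals overlapped at 22, the median gap between summits was 83 bp, and 13 gaps were within 100 bp. The highest folds of the 2 lists went together across these 24 genes (Pearson 0.82, Spearman 0.62, a description over genes with divergent neighbours among them). Median folds at these members were 2.15 for Atf1 and 2.28 for Pcr1, against 2.84 and 2.82 at the 869 other genes with both. A Pcr1 summit was at 47.1% of the members with Atf1, against 67.4% of other genes with Atf1. An Atf1 summit was at 68.6% of the members with Pcr1, against 85.7% of other genes with Pcr1.

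The summits of Atf1 and Pcr1 were not confined to promoters: they lay along the transcribed bodies of ribosomal protein genes, where other genes had few. In the 250 bp before the start, members had 17.6 Atf1 summits per 100 genes, against 13.1 for all genes. In the first 250 bp after it, they had 16.2, against 2.69, and from 250 to 499 bp they had 22.1, against 2.34. For Pcr1 the first 250 bp before the start held 8.82 summits per 100 member genes, against 9.74 for all genes, and the first 250 bp after it 13.2, against 1.94. From 250 to 499 bp Pcr1 had 13.2 at members, against 1.81. The excess went on beyond the median member length of 680 bp, so it was not confined to bodies. Between 750 and 999 bp Atf1 had 14.0 at members, against 2.47, and Pcr1 9.56, against 1.86. Members stood above all genes mainly after the start, and for Pcr1 not at all in the 250 bp before it.

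**Figure D3:**
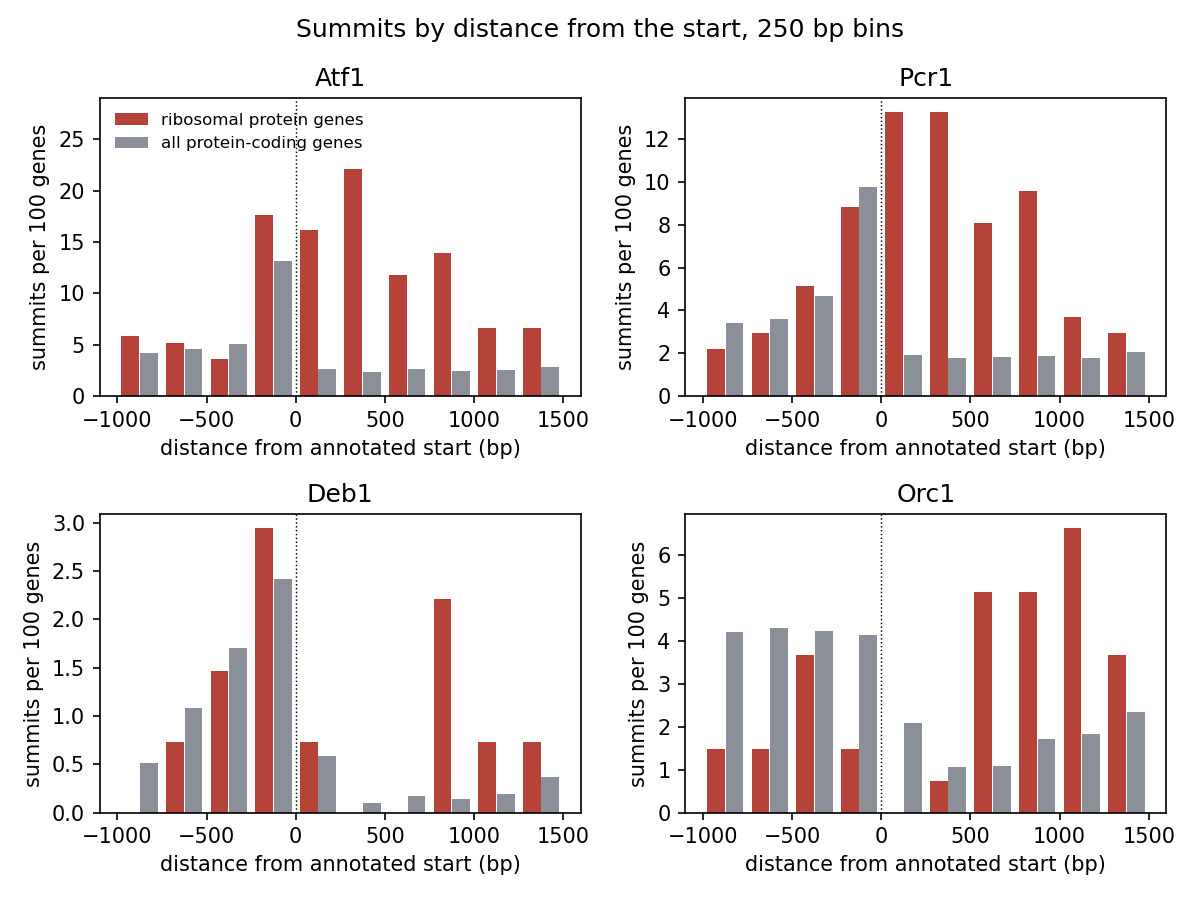
Summits per 100 genes in 250 bp bins of distance from the annotated start (negative is upstream), for ribosomal protein genes and for all placed protein-coding genes, 1 panel per list with its own vertical scale. For Atf1 and Pcr1 the bins after the start are far higher for members (16.2 and 13.2 in the first) than for all genes (2.69 and 1.94), whereas Orc1 has no member summit in the first bin after the start.

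Counted from annotated start to end, 63 of 136 members (46.3%) held an Atf1 summit, against 14.4% of all genes, and 41 (30.1%) held a Pcr1 summit, against 10.2%. Deb1 summits lay within 3 members (2.21%), against 1.35%, and Orc1 summits within 4 (2.94%), against 8.52%. Input samples exist for Deb1 and Orc1 only, and how controls entered each list is not given. Whether the body summits of Atf1 and Pcr1 mark binding of these factors was not tested. Member genes were short, with a median length of 680 bp, against 1775 bp for all genes, so the count per gene understates the difference. Per megabase of gene, members held 697 Atf1 summits, against 84.6 for all genes, and 408 Pcr1 summits, against 58.3. Among 732 other genes of at most 1011 bp, 9.43% held an Atf1 summit and 9.15% a Pcr1 summit, with 141 summits per megabase for either protein. Both Atf1 and Pcr1 summits lay within 30 members (22.1%), against 7.99% of all genes.

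Within the subunits, 35 of 81 large-subunit genes (43.2%) and 28 of 55 small-subunit genes (50.9%) held an Atf1 summit in the body, and 23 (28.4%) and 18 (32.7%) a Pcr1 summit. The 70 Atf1 summits lay at a median of 45.4% of the gene's length and the 41 Pcr1 summits at 43.6%. Their intervals covered a median of 29.2% and 38.9% of the gene. Folds were low, with a median of 2.08 for Atf1 (1.62 to 2.76) and 2.11 for Pcr1 (1.76 to 2.83), and none reached 3. With a −log10 q of at least 10, 5 members (3.68%) kept an Atf1 summit in the body, against 3.95% of all genes, and 2 (1.47%) a Pcr1 summit, against 3.24%. The higher body shares of the members thus came from peaks below that threshold. The highest body folds for Atf1 were at rpl2102 and rpl4302 (2.76 each) and at rpl1702 and rpp102 (2.64 each, summits 290 and 205 bp into the gene), and for Pcr1 at rpl1901 (2.83) and rpl2102 (2.82). Both rpl1702 and rpp102 lay just beyond the promoter window and so are not among the 51 genes above. In all, 86 members (63.2%) had an Atf1 summit in the window or the body, against 34.7% of all genes, and 61 (44.9%) a Pcr1 summit, against 26.9%.

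Position in the window varied. Of the 60 Atf1 summit and member pairs, 44 were upstream of the start, 24 of them within 250 bp, and 16 were downstream. Of the 38 Pcr1 pairs, 26 were upstream and 12 downstream. At the edges of the window, the Atf1 summit of rpl2501 at 965 bp upstream and that of rpl3202 at 200 bp downstream were just inside. Those of rps2 at 1107 bp upstream and rpp102 at 205 bp downstream were just outside. A divergent neighbour with a start within 1000 bp shared the promoter of 62 members, 10 of them with another member (rpl13 with rps1602, rpl35 with rpl902, rpl701 with rps1402, rpp203 with rps1502, and rps2 with rps20). The member itself had the nearest start for 41 of the 60 Atf1 pairs, 28 of the 38 Pcr1 pairs, 6 of the 8 Deb1 pairs and 10 of the 11 Orc1 pairs.

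Atf1 summits were about as frequent at members with the exact HomolD word as at members without it. Some of those without it carry a near match, so the split does not compare presence with absence of the element. Atf1 was at 33 of the 87 placed members with the word (37.9%) and at 18 of the 49 without it (36.7%). Pcr1 was at 25 (28.7%) with the word and 10 (20.4%) without. Summits near the word were nonetheless a larger share at members than elsewhere: 11 of the 59 Atf1 member summits (18.6%) had HomolD within 50 bp, against 0.909% of the whole list, and 3 of 37 Pcr1 summits (8.11%), against 0.386%. Since the word is itself common in member promoters, this share was set partly by the choice of genes. The ATF/CRE core was within 50 bp of 1 of 59 Atf1 member summits (1.69%), against 13.5% of the list, and of 1 of 37 Pcr1 member summits (2.70%), against 11.1%.

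The gap from summit to HomolD word was 0 bp at rpl35A02 (Atf1 fold 1.93), 3 bp at rpl702 (2.17), 5 bp at rpl39 (1.74), 7 bp at rpl2301 (2.45) and 8 bp at rps1901 (1.76). Over the 38 Atf1 pairs with the word the median gap was 142 bp, and 11 were within 50 bp; over the 27 Pcr1 pairs it was 159 bp, and 3 were within 50 bp. The copies rpl2501 and rpl2502, with no exact HomolD word, had Atf1 at 2.41 and 2.08, and rpl2502 carries the near match AGTGACTG.

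**Figure D4:**
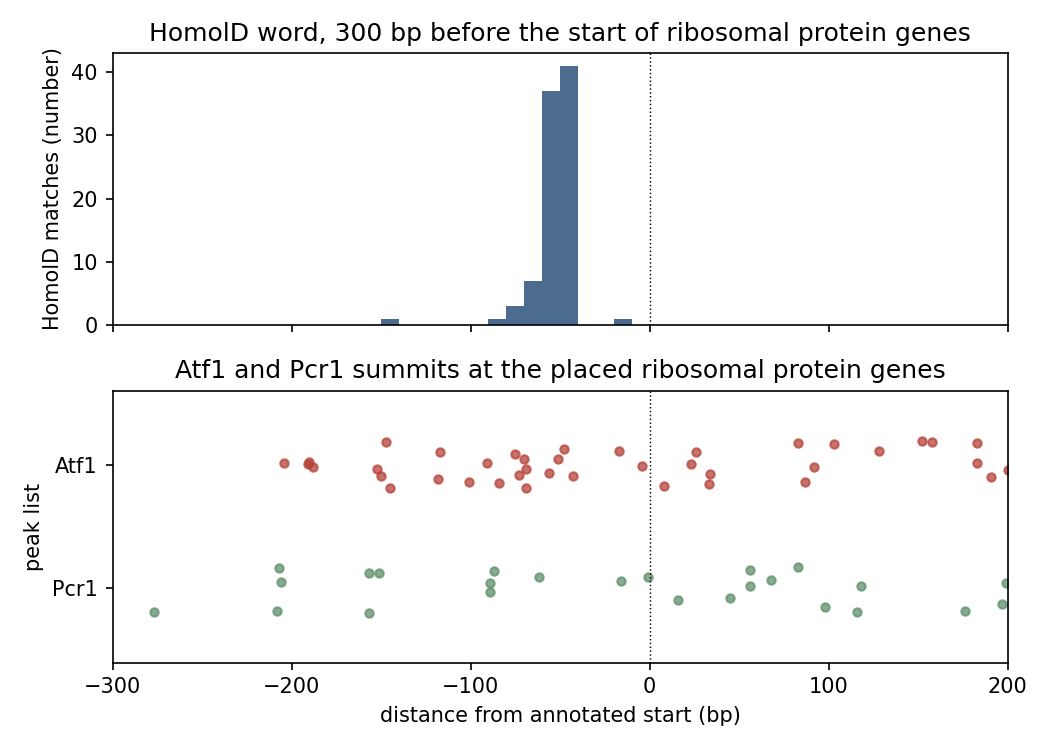
The upper panel counts HomolD words by distance from the annotated start (bp) in the promoters of 138 ribosomal protein genes, and the lower panel places the Atf1 and Pcr1 summits of the 136 placed genes that fall in the same range, with points spread vertically for legibility. The words pile up at a median of 51 bp before the start, while the summits spread on both sides of it.

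Deb1 had few members, with strong peaks. They were rpl4102 (fold 6.76), rps27 (6.68, rank 16 of 351, summit 103 bp into the gene), rps801 (6.33, 423 bp upstream) and rpl302 (5.28, 484 bp upstream), which encodes L3, a protein near the catalytic centre. The others were rpl31 (5.24, 128 bp upstream), the stalk gene rpp101 (4.80, 46 bp upstream), rpl1001 (4.35, 152 bp upstream) and rps3002 (4.01, 159 bp upstream). All 8 had a −log10 q above 10, as did 99.4% of the list, and every one of them reached 3-fold, against 81.8% of the list. The word GGTAACA, taken from earlier work on the same list and searched on both strands, was within 50 bp of 0 of the 8 summits, against 13.1% of the list. Within 100 bp it was at 2 of the 8 (25%), against 25.7%, and within 500 bp at 5 (62.5%), against 48.6%. Besides Deb1, 5 of these genes (rpl4102, rps27, rps801, rpl1001 and rpl302) had both Atf1 and Pcr1 summits, rps3002 had Pcr1 alone, and rpl31 and rpp101 had neither. The same share over all genes with a Deb1 summit is not given here, so whether this overlap is particular to members was not tested.

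The gene rps27, for the small-subunit protein eS27, was the 1 member with all 4 proteins. Its Deb1 peak (chromosome 2, 516910 to 517452) and its Orc1 peak (516879 to 517474, fold 2.65, summit 242 bp upstream) overlapped over the promoter shown above. Its Atf1 (1.85) and Pcr1 (2.54) summits, 860 and 877 bp upstream, lay 33 and 16 bp into the neighbouring member rps29, and are counted for both genes. Apart from rps27, 5 members had 3 lists: rpl1001, rpl302, rpl4102 and rps801 with Atf1, Pcr1 and Deb1, and rpl29 with Atf1 (1.93), Pcr1 (2.16) and Orc1 (2.06). These 6 genes are 4.41% of the placed members, against 7.85% of all genes with at least 3 lists.

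Orc1 summits were scarce at the starts and in the bodies of the members. Its 11 member summits were all upstream, from 166 to 901 bp before the start, and none lay in the 250 bp after it, against 2.08 per 100 genes overall. They were at rpl3002 (fold 3.99, rank 76 of 1526, 350 bp upstream), rpl501 (3.18, 294 bp upstream), rpl44 (2.96), rps502 (2.67), rps27 (2.65), rps3001 (2.34), rpl29 (2.06), rps1701 (1.87), rpl1602 (1.86), rpl3001 (1.86) and rpl801 (1.82). The gene rpl501 encodes uL18, which enters the ribosome with its own small RNA. Beyond the start, Orc1 summits returned from 500 bp onward, at 5.15 per 100 member genes between 500 and 749 bp, against 1.08 for all genes; with a median member length of 680 bp, many of these positions are past the gene's end. Split by promoter layout, which was looked at after the values were seen, 0 of the 62 members with a divergent promoter had an Orc1 summit, against 7.91% of all genes with one. Of the 74 members without one, 11 (14.9%) had a summit, against 19.6% of all genes without one.

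Most ribosomal proteins are made from paired gene copies, and in many families the copies differed. With Atf1 at 37.5% of members, many pairs of unrelated genes would differ as well, and the families were not compared with such pairs. Of 56 families with at least 2 copies, 55 had at least 2 placed copies, 51 of them pairs. Atf1 was at every copy in 7 families (rpl18, rpl25, rpl3, rpl32, rpl38, rpl41 and rpl7), at some copies in 26 (12 large-subunit, 14 small-subunit) and at none in 22. All 7 families with every copy were of the large subunit. The only Atf1 summits in the windows of rpl1802, rpl2502 and rpl701 lay nearer to another gene's start. Those starts were of mrx21 (31 bp away), leu3 (91 bp) and rps1402 (323 bp). Pcr1 was at every placed copy in 4 families (rpl41, rpl7, rpl9 and rps30) and at some in 19. Deb1 was at some copies in 6 families and at every copy in 0, and Orc1 was at both copies of rpl30 and at some copies in 6 families.

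In rpl18 the Atf1 folds were 2.51 at rpl1801 (743 bp upstream) and 1.89 at rpl1802 (147 bp upstream). In rpl3 they were 2.05 at rpl301 and 2.02 at rpl302, in rpl32 1.97 at rpl3201 and 2.20 at rpl3202, and in rpl38 2.17 at rpl3801 and 1.99 at rpl3802. The 2.20 summit of rpl3202 lay 90 bp from the start of hob2, and a second at 2.11 lay 200 bp into rpl3202. In rpl7 Atf1 was at 2.13 (rpl701) and 2.17 (rpl702), and Pcr1 at 2.09 and 2.40. Pcr1 in rpl9 was at 2.06 (rpl901) and 2.20 (rpl902), and in rps30 at 2.21 (rps3001) and 1.88 (rps3002). Orc1 in rpl30 was at 1.86 (rpl3001) and 3.99 (rpl3002), with summits 281 and 350 bp upstream. The widest gaps between copies were those of Atf1 and Pcr1 in rpl41, given above, and of Orc1 in rpl30.

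Among the families with Atf1 at some copies, the highest folds were at rpl1001, rpl2102, rpl4302, rps801, rps102, rpl2301, rpl101, rps602, rpl3601 and rps1402, each with no Atf1 summit in the window of its other copy. Past the window, 4 of the other copies held an Atf1 summit in the body: rpl2101 at 226 bp (fold 2.52), rps1401 at 247 bp (2.29), rpl4301 at 296 bp (2.01) and rps601 at 353 bp (2.36). The 2 lists did not always pick the same copy. Atf1 was at rpl2301, rps1102, rps1402 and rps1602, whereas Pcr1 was at rpl2302, rps1101, rps1401 and rps1601. That split depends on the window in 2 of the 4 families: Atf1 also had a summit 366 bp into rps1101 (fold 2.52) and 247 bp into rps1401 (2.29), and Pcr1 336 bp into rps1402 (2.09). Of these, rps1402 and rps1602 share divergent promoters with other members, and their Atf1 summits lie 835 and 606 bp upstream. By body summits, Atf1 was in every copy of 13 families and in some copies of 23, and Pcr1 in every copy of 5 and in some of 19. Members with a single copy had Atf1 at 11 of 21 (52.4%) and Pcr1 at 8 (38.1%), while the 115 members in families had 34.8% and 23.5%. The shares of all genes were 26.3% and 20.6%. At the single-copy genes rps2, rps20, rpl35 and rps27, the only Atf1 summit in the window lay within a neighbouring member. Those neighbours were rps20, rps2, rpl902 and rps29.

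**Figure D5:**
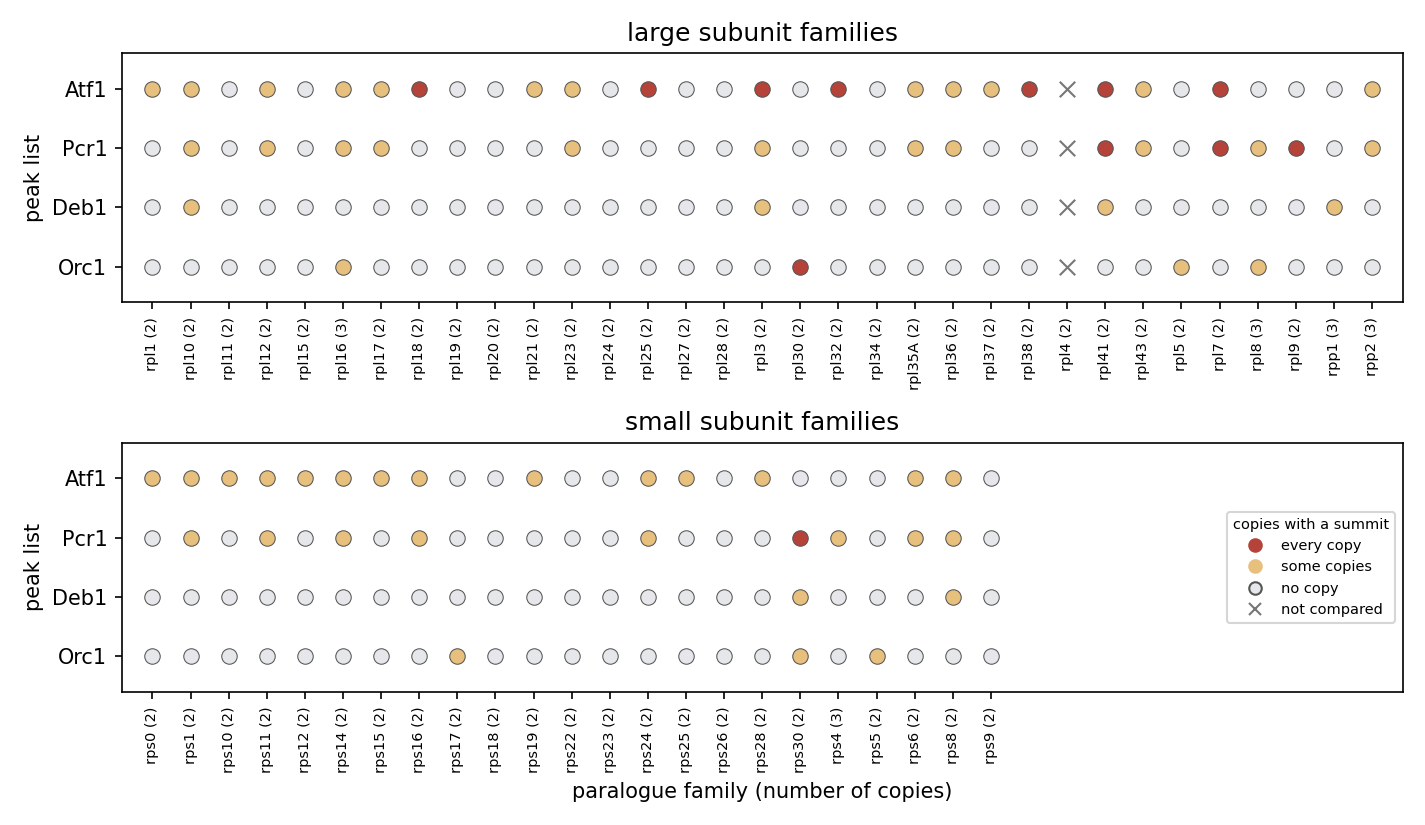
Each column is a paralogue family, with its number of copies, and each row a peak list; colour tells whether every placed copy, some copies or no copy had a summit in the window, and a cross marks the rpl4 family, which could not be compared. Atf1 was at every copy in 7 large-subunit families and at some copies in 26 families of both subunits.

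Near-identical copies can share reads. Exact repeats of 50 bases elsewhere in the genome occurred in the bodies of 32 of 138 members, over at most 85.1% of a body, and in the upstream regions of 9, led by rpl4102 (28.9% of the region) and rpl1001 (21.5%). Within 100 bp of member summits they occurred for 5 of 60 Atf1, 4 of 38 Pcr1, 2 of 11 Orc1 and 1 of 8 Deb1 pairs, and no source used here says how the authors treated reads with several matches. The part of such reads in the counts was not tested.

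With the peaks as deposited, other genes of the translation apparatus had lower Atf1 shares than the cytosolic ribosomal protein genes. The 5 ribosomal protein genes outside the symbol rule were the exception. Over the other 4 gene lists the Atf1 share was 13.2% to 33.3%, against 37.5% of members and 26.3% of all genes. Of these 4, only the elongation factors (33.3%, from 12 genes) lay above all genes. The higher share of members rested on peaks of low enrichment, as given above. Among all genes, 20.6% had a Pcr1 summit, 6.22% a Deb1 summit and 15.6% an Orc1 summit. Mitochondrial ribosomal proteins had Atf1 at 12 of 75 genes (16.0%), Pcr1 at 8, Deb1 at 0 and Orc1 at 6, led by mrp20 (Atf1 3.31, Pcr1 3.36), mrps16 (3.16 and 2.83) and rtc6 (2.90 and 2.11). Initiation factors had Atf1 at 6 of 34 (17.6%), Pcr1 at 3, Deb1 at 2 and Orc1 at 6; gcn3, a subunit of the guanine nucleotide exchange factor eIF2B, had Atf1 at 2.92, Pcr1 at 3.06 and Deb1 at 5.40. Ribosome biogenesis genes had Atf1 at 7 of 53 (13.2%), Pcr1 at 7, Deb1 at 2 and Orc1 at 8, with ebp2 at 3.35 (Atf1) and 3.55 (Pcr1). Elongation factors had Atf1 and Pcr1 at 4 of 12 each, with the EF-1 alpha gene tef103 at 3.78 and 4.09. Ribosomal protein genes outside the symbol rule (ubi1, ubi2, ubi3, ubi5 and cpc2), listed after the annotation was seen, had Atf1 at 3 of 5 and Pcr1 at 2.

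Of 16 regulators and kinases tied to ribosome production, 3 had an Atf1 summit (18.8%, against 26.3% of all genes), 4 a Pcr1 (25%, against 20.6%), 1 a Deb1 (6.25%, against 6.22%) and 1 an Orc1 summit (6.25%, against 15.6%). The transcription factor gene sfp1 had Atf1 at 3.92, Pcr1 at 4.39 and Deb1 at 5.09. The S6 kinase family gene psk1 had Atf1 at 3.68 and Pcr1 at 3.38, and rrn7, whose product binds HomolD, had 2.25 and 1.91. The forkhead gene fkh2 had Pcr1 at 2.45 and the telomere protein gene rap1 had Orc1 at 3.47. The genes fhl1 and ifh1, regulators of ribosomal protein genes, had no summit of any list in the window.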

How the data were processed

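Chromatin immunoprecipitation sequencing was analysed from 4 peak lists. Tools, per the submitters' processing notes, were MACS2 2.1.2, Bowtie 1.2.3 and bedtools; settings, the use of controls and the genome build are not given in the sources used here. Each deposited list gives the authors' fold enrichment (a ratio), −log10 q-value and a score equal to 10 times −log10 q rounded down; they served only to describe, rank or filter within a list.

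The summit was the start plus the deposited offset, or the midpoint where that fell outside the interval. Genes and sequence came from RefSeq ASM294v3. On chromosome 2, list positions right of 2160000 were moved left by 12220 bp for all matching; printed peak intervals are as deposited. The ATF/CRE core lay within 50 bp of 33.6% of right-side Atf1 and Pcr1 summits of fold 3 or more with the move, 2.68% without (149 summits) and 27.3% elsewhere. List positions 2110000 to 2160000 were left out, a departure from the plan, because the offset begins inside them. That removed 18 genes, 2 of them members.

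Scripts used Python 3.11.15, pandas 2.3.3 and numpy 2.4.6, and the window assignment was tested on simulated peaks. Members, gene lists and words were chosen with earlier results of these data known. Named genes were the 10 members of highest fold per list, all Deb1 members, members with 3 or more lists, copies of families with every copy bound, up to 10 families with some copies bound, members at the window's edges, and up to 3 other translation genes per protein and list. No replicate or test was available. Alternatives were other windows, starts, thresholds and placements.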

Additional observations from a re-analysis of the deposited data

How the results depend on the processing

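Counts of members with a summit moved most with the peak threshold. With a −log10 q of at least 10, Atf1 was at 8 members (7 large-subunit, 1 small-subunit), Pcr1 at 3 (2 and 1), Orc1 at 7 (4 large-subunit), both Atf1 and Pcr1 at 3, and 7 families were split by Atf1. For Atf1, Pcr1 and Orc1 these were 5.88%, 2.21% and 5.15% of members, against 12.3%, 10.0% and 10.2% of all genes. With a fold of at least 3, Atf1 was at 2 (2 and 0), Pcr1 at 2 (1 and 1), Orc1 at 2 (2 and 0), both at 1, and 1 family was split. For Atf1, Pcr1 and Orc1 this was 1.47% of members each, against 7.54%, 7.95% and 3.47% of all genes. Body summits were at 5 members for Atf1 (3.68%, against 3.95% of all genes) and 2 for Pcr1 (1.47%, against 3.24%) with the q threshold. With the fold threshold they were at 0 for either, against 2.1% and 2.18% of all genes. With 500 bp upstream, Orc1 was at 7 members (5.15%, against 9.77% of all genes), 2 of the small subunit. With no bases downstream, Pcr1 was at 23 (16.9%, against 19.3% of all genes), 13 of them large-subunit, and both Atf1 and Pcr1 at 15. With the nearest start alone, Atf1 was at 13 small-subunit genes (23.6%, against 20.5% of all genes). With any overlap of interval and window, both Atf1 and Pcr1 were at 40. The share of all genes with both was not counted under the settings above. Leaving out the 62 members with a divergent neighbour, which removes genes by construction, gave Atf1 at 26 of 74 (15 of 42 large-subunit, 11 of 32 small-subunit), Pcr1 at 19 (10 and 9), Deb1 at 4 (2 large-subunit), both at 12, Orc1 at 11 (14.9%) and 10 of 20 families split. The part with no shift alone gave 17 of 36 families split. With 500 bp in place of 50 bp around member summits, HomolD was near 56.8% of Pcr1, 52.5% of Atf1, 54.5% of Orc1 and 37.5% of Deb1 summits, and the ATF/CRE core near 13.6% of Atf1 and 18.9% of Pcr1 summits, as wider windows hold more words.

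Of 206 alternative values, 157 stayed within 1.5 times the main count, or within the main share's interval. Those of the 2 alternatives for the left-out stretch of chromosome 2 and of the body counts were chosen after seeing the data. Taken as listed, the stretch would add an Atf1 summit at rpl401 (fold 3.89), Pcr1 summits at rpp202 (2.09 and 2.05) and an Orc1 summit at rpp202 (2.71). The place of these peaks on the reference is not known. No paired analysis was possible because each protein has 1 list. Depth is unknown, so a member without a summit is one without a listed peak, not one shown to lack binding.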

Other observations

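The upstream stretches of rpl4102 and rps801, which both have Atf1, Pcr1 and Deb1 peaks, look alike beyond HomolD. Each has TAGCGTAG, starting 149 bases before the start at rpl4102 and 146 at rps801, followed by CTGACAG 131 and 128 bases before it. These words were chosen after the sequences were read, so the counts only describe. On either strand over 300 bases, the first word was in 4 of 138 member promoters (rpl1001, rpl29, rpl4102 and rps801), against 105 of 5113 promoters (2.05%). All 4 have summits of 3 lists, but for rpl4102 and rps801, from which the word was read, this was set by the choice of word. Over 1000 bases the first word was in 5 members (3.62%), against 4.11% of all genes, and the fifth, rps2201, has no summit in its window. The words together, in this order and with at most 15 bases between them, were in 2 member promoters, against 6 of 5113. TAGCGTAG was within 250 bp of 18.0% of Deb1 summits, 4.83% of Pcr1 summits, 4.29% of Atf1 summits and 1.39% of Orc1 summits. Within 50 bp the Deb1 share was 3.14%. At rpl1001 it lay 76 bp from the Deb1 summit, but at rpl4102 and rps801 it was 447 and 277 bp away.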
